A study of Mus musculus with 31 samples.

Results

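The 40 genes described here work in G2 phase and mitosis: the mitotic kinases, cyclins, spindle checkpoint proteins, kinesin motors and chromosome proteins that a cell makes shortly before it divides. The list is a set of gene names with no threshold on any value, although it was chosen with earlier results of these data known. Of the 40, 35 had at least 1 probe set that carries a single gene symbol, 47 probe sets in all, and 34 genes with 42 probe sets were bright enough to test, among 5900 named genes tested. Ccnb1, Cdc25b, Bub1b, Cenpf and Hmmr were not analysed here. Cenpe, a kinesin of the centromere, was on the array but dim: its brightest probe set ranged from 1.9 to 28.1, and it was not tested.

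The cells were D10.G4.1, a cloned mouse T helper line of the Th2 type, which makes interleukins 4, 5 and 13. They were treated with phosphate-buffered saline (PBS) or with neuromedin U (NmU), a peptide that acts through receptors on nerve, gut and immune cells, and total RNA was measured on one-colour arrays at 0.8, 3, 6 and 12 h. Each of the 8 groups had 4 arrays, except NmU at 3 h with 3, which gives 31 arrays. A line grown from 1 clone stands for 1 cell, and the labels give neither the dose of NmU nor whether replicates came from separate cultures, so every p-value below sets a difference against array-to-array variation that could be purely technical.

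Cells that pass from G2 into mitosis do so when cyclin-dependent kinase 1 is switched on by cyclins A and B, and Polo-like and Aurora kinases then drive spindle assembly, chromosome alignment and the final cut between daughter cells. The mRNAs of these proteins are made in one wave late in the cycle. Their promoters are held off early in the cycle by the DREAM complex, which uses the cell cycle genes homology region (CHR), and are then switched on by the MuvB core with B-Myb and FOXM1, often beside CCAAT boxes bound by NF-Y. In a T cell clone the wave runs only in cells that are dividing, and a bulk array cannot tell fewer cells in G2 and mitosis from less of these mRNAs in each cell.

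Signals below are the deposited probe set intensities, and differences are log2 ratios of NmU over PBS from 1 limma fit to all 31 arrays, called at an adjusted p under 0.05. A gene with more than 1 probe set is represented by its brightest one. The tested members were all well above the floor of 5.8 that was set for dim probe sets: the lowest signal of any of the 34 on any array was 33.5, for Ttk at 3 h with NmU. The T cell genes Cd3d (1078 to 1763) and Cd4 (230.4 to 334.2) were bright on every array. Lat, another T cell gene, had a median of 93.8. The CD8 gene Cd8a was at or under the floor on 26 of 31 arrays. Of 8 macrophage, monocyte and dendritic cell markers, Lyz2, Itgam and Adgre1 were there on 28, 31 and 26. Csf1r, Cd14, Itgax, Cd68 and Cd74 were above the floor on every array, with medians of 30, 70.9, 100.5, 39.1 and 57.3. The B cell genes Cd79a and Ms4a1 were too, with medians of 61.1 and 41.7, while Cd79b (13.1) and Blnk (19.6) were dimmer. The macrophage gene Cd68 rose by 0.54 at 6 h (SE 0.15, adjusted p = 0.0369) and by 0.61 at 12 h (adjusted p = 0.0457). It alone was called among the 5 tested macrophage, monocyte and dendritic cell markers. The summed signal of that marker list of 8 was 267 to 304 with PBS at 6 h and 304 to 373 with NmU, and its part in the results at 6 h was not tested. At 3 h the same sum was 241 to 318 with PBS and 240.2 to 308 with NmU, and no marker of the list was called.

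Of the 34 tested genes, 16 fell with NmU at 3 h and 18 did not pass the test. Each of the 34 had a negative log2 ratio on its brightest probe set. The 16 (47.1%) were called lower and 0 higher, against 5.73% of all tested probe sets called lower and 4.44% called higher. The median of the 34 was a log2 ratio of -0.41, against -0.03 over all tested probe sets. In 15 of the 34 every NmU array was below every PBS array, against 10.6% of all tested probe sets. The 16 were the kinases Aurka, Aurkb, Plk1, Nek2 and Ttk, the cyclins Ccna2, Ccnb2 and Ccnf, the passenger protein Incenp, the motors Kif2c, Kif4, Kif11 and Kif22, the cytokinesis genes Prc1 and Ect2, and the transcription factor Foxm1. At 6 h 8 of 34 (23.5%) were lower and 0 higher, against 2.03% lower and 2.85% higher over all tested probe sets, and 5 of those 8 were genes not called at 3 h. At 0.8 h and 12 h limma called 0 members in either direction.

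**Figure D1:**
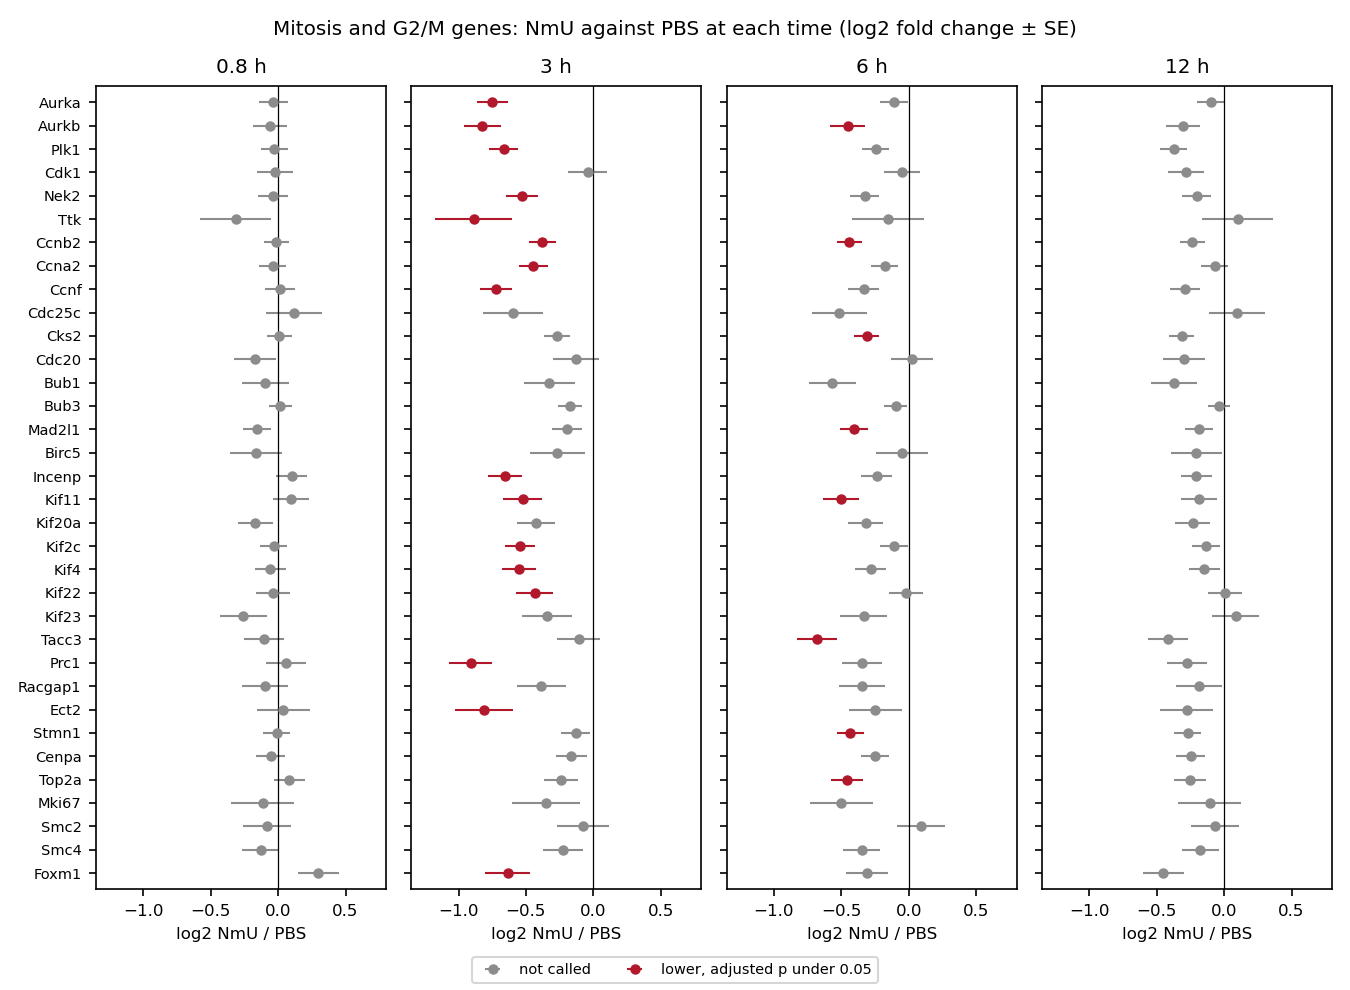
Log2 ratio of NmU over PBS (x axis, with 1 SE) for the 34 tested genes (rows, ordered by role) at 0.8, 3, 6 and 12 h, with red points for genes called lower and grey for the rest. The red points are 16 at 3 h and 8 at 6 h, and there are none at 0.8 h or 12 h.

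The promoters of 5 members are printed to show the letters that many of these genes share around the start of transcription. Each stretch of 130 bases runs from 100 before to 30 after a start site of RefSeq, build GRCm38.p6, on the strand of the gene, with the CHR letters TTTGAA, the CCAAT box, or their reverse complements in capitals. Prc1, Ccnb2, Ttk and Kif11 were called lower at 3 h, and Cdc20 was not called at any time.
Prc1 (chr7:80294351-80294480, plus strand): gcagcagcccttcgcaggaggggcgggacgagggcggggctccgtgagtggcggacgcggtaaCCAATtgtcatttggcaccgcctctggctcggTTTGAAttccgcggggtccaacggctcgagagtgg
Ccnb2 (chr9:70421525-70421654, minus strand): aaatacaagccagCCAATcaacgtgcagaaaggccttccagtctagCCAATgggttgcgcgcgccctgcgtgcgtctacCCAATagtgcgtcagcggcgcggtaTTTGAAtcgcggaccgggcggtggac
Ttk (chr9:83834589-83834718, plus strand): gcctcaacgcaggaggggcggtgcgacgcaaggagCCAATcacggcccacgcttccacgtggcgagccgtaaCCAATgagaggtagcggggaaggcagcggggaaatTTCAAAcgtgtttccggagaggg
Kif11 (chr19:37376282-37376411, plus strand): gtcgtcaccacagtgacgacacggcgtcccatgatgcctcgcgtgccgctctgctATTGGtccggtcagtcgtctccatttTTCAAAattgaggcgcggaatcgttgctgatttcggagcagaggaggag
Cdc20 (chr4:118437314-118437443, minus strand): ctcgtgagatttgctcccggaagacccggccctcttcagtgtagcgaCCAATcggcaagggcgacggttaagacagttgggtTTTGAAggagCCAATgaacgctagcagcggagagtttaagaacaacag

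In these stretches, which are examples, the CHR letters begin within 19 bases of the start site. They begin at -5 in Prc1, 5 in Ccnb2, 8 in Ttk, -19 in Kif11 and -18 in Cdc20. A CCAAT box lies upstream in each, and Ccnb2 has 3 of them, beginning at -87, -54 and -21. Counted from a second start of Prc1, the CHR letters begin at -30. Of other genes lower at 3 h, Nek2 held no CHR letters, and Kif2c held them only at -103, with no CCAAT. Over the full RefSeq window of 300 bases (250 before to 50 after the start), searched on both strands for TTTGAA or TTCGAA, 21 of the 26 tested members with a promoter in the table (80.8%) held CHR letters, against 16.9% of 4782 tested genes and 21.7% of all 27025 genes in the table. CCAAT was in 22 of the 26 (84.6%), against 43% and 41.1%, and both motifs were in 20 of the 26 (76.9%), against 7.24% and 8.61%. CHR and CCAAT letters can share no more than 1 base where they meet. In Aurka and Plk1 the CHR letters begin at 33 and 31, just past the stretch that would be printed. Aurkb, Ccna2, Cdc25c, Kif20a, Foxm1, Incenp, Smc4 and Stmn1 have no entry in the table.

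The letters were found in members with and without a call at 3 h. CHR letters were in 11 of the 12 members lower at 3 h and in 10 of the 14 members not called there, and both motifs were in 10 of 12 and 10 of 14. Among the 6 members lower at 6 h with a promoter, 3 had both. A match is a description of letters in a window and was not tested against binding.

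Among the mitotic kinases, 5 of 6 were called lower at 3 h. Aurka, the Aurora kinase of the centrosome and spindle poles, had signals of 222.8, 202.7, 216.2 and 316.3 with PBS at 3 h and 163.3, 134.3 and 125.3 with NmU. Every NmU array was below every PBS array, and PBS array 4 was the highest of the 7. Aurka fell by 0.75 on the log2 scale (SE 0.11, adjusted p = 5.5e-05), and by 0.61 without it. Aurkb, the catalytic kinase of the chromosomal passenger complex that corrects faulty attachments to the spindle, read 287, 238.9, 348.4 and 352.5 with PBS and 214.6, 179.9 and 129.6 with NmU, again without overlap. It fell by 0.82 (SE 0.14, adjusted p = 1.52e-04).

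Plk1, the Polo-like kinase that brings on mitotic entry, centrosome maturation and cytokinesis, read 384.4, 308.2, 377.3 and 406.4 with PBS at 3 h and 269.5, 214.5 and 214.5 with NmU. The groups were apart, and Plk1 fell by 0.67 (SE 0.11, adjusted p = 1.37e-04). Its other 2 probe sets carry the suffix f, which the array maker gave to sets that may match related sequences. The first fell by 0.72 (adjusted p = 0.0258), and the second had -0.38 (adjusted p = 0.363). Some brightest probe sets carry a suffix too: f for Kif20a, g for Plk1 and Foxm1, r for Kif22 and s for Cdc25c. Nek2, a kinase that separates the centrosomes, read 162.7, 150.7, 195.9 and 216.9 with PBS and 124.4, 118.5 and 130.5 with NmU, with no overlap, and fell by 0.53 (SE 0.12, adjusted p = 0.00381). Ttk, also called Mps1, the kinase that starts spindle checkpoint signalling, read 60.6, 94.2, 83.1 and 158.6 with PBS and 64.7, 58.9 and 33.5 with NmU. These groups overlapped, since the first PBS array was below the first NmU array. Its fall of 0.89 (SE 0.28, adjusted p = 0.0458) lost its call when any 1 of 19 of the 31 arrays was left out, PBS array 4 among them (-0.63, adjusted p = 0.145).

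Cdk1, the kinase on which mitotic entry depends, was the exception among the kinases. Its signals were 635, 617.4, 833.6 and 1061.6 with PBS and 794.7, 696 and 748 with NmU. The NmU arrays lay inside the range of the PBS arrays, with a log2 ratio of -0.04 (SE 0.14, adjusted p = 0.904), the smallest of the 34 at this time.

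Among the cyclins and Cdk regulators, 3 of 5 were called lower at 3 h. Ccnf, the F-box protein cyclin F that marks partners for breakdown in G2, read 197.1, 183.3, 214.7 and 165 with PBS and 109.3, 100.5 and 137 with NmU. Every NmU array was lower, and here PBS array 4 was the lowest of its group. Ccnf fell by 0.72 (SE 0.12, adjusted p = 1.54e-04), and by 0.79 without PBS array 4.

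Ccna2, the cyclin of S phase and G2, read 289.1, 271.5, 294.6 and 377.3 with PBS and 262.1, 196.6 and 218.5 with NmU. It fell by 0.45 (SE 0.11, adjusted p = 0.00658) with no overlap, and lost the call without NmU array 2 (adjusted p = 0.0677). Ccnb2, a B-type cyclin that activates Cdk1, read 731, 586.3, 700.9 and 649.8 with PBS and 498.9, 531.2 and 505 with NmU. All 3 NmU arrays were below the lowest PBS array. Ccnb2 fell by 0.38 (SE 0.10, adjusted p = 0.0145), and its adjusted p was 0.0619 without NmU array 1 and 0.0539 without NmU array 3. Cdc25c, the phosphatase that switches Cdk1 on, and Cks2, a small Cdk-binding protein, had every NmU array below every PBS array without passing the test (-0.60, adjusted p = 0.0878, and -0.27, adjusted p = 0.0800).

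Both cytokinesis genes with the deepest falls act at the midzone between separating chromosomes. Prc1, which bundles the midzone microtubules, read 237.3, 286.6, 260.1 and 411.7 with PBS and 185.4, 150.8 and 134.7 with NmU. The groups did not overlap. Its fall of 0.91 (SE 0.16, adjusted p = 2.84e-04) was the largest of the 34 at 3 h with all arrays. Without PBS array 4 it was 0.74, below those of Ccnf (0.79) and Aurkb (0.75). Ect2, the exchange factor that activates RhoA for the contractile ring, read 95.4, 113.5, 97.9 and 166.8 with PBS and 68.6, 70.5 and 58.7 with NmU. It fell by 0.81 (SE 0.21, adjusted p = 0.0135) with no overlap, and its adjusted p was 0.0510 without PBS array 4 and 0.0731 without NmU array 3. Racgap1, the partner of Ect2 at the midzone, had -0.39 (adjusted p = 0.193), and Tacc3 and Stmn1 had -0.11 and -0.13.

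Of the passenger proteins, Incenp, the scaffold that holds Aurora B at the centromere, read 171.1, 153.4, 153.1 and 205.1 with PBS and 128, 96 and 101.7 with NmU. All NmU arrays were lower, and Incenp fell by 0.65 (SE 0.12, adjusted p = 7.08e-04). A second, dimmer probe set of Incenp had -0.31 (adjusted p = 0.453). Birc5, the gene of survivin, was not called (-0.27, adjusted p = 0.474), and its NmU arrays, 132.1, 154.2 and 239.5, overlapped the PBS range of 148 to 307.2.

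Among the 6 motors, 4 were called lower at 3 h. Kif4, a chromokinesin of the chromosome arms and midzone, read 97.4, 99, 110.1 and 121.2 with PBS and 79.9, 73.3 and 65.3 with NmU, and fell by 0.55 (SE 0.13, adjusted p = 0.00410). Kif2c, the microtubule depolymerase MCAK, read 81.4, 106.3, 98.4 and 107.7 with PBS and 72.7, 73.5 and 56.8 with NmU, and fell by 0.54 (SE 0.11, adjusted p = 0.00153). In both the groups were apart. Kif11, the kinesin Eg5 that pushes the spindle poles apart, read 205, 171.1, 176.3 and 266.9 with PBS and 138.9, 111.5 and 178 with NmU. Kif22, the chromokinesin Kid, read 539.1, 541, 468 and 745.6 with PBS and 499.9, 380.8 and 383.6 with NmU. In both of these, 1 NmU array reached into the PBS range.

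Kif11 fell by 0.52 (SE 0.14, adjusted p = 0.0168) and Kif22 by 0.43 (SE 0.14, adjusted p = 0.0412), and both calls were lost without PBS array 4 (adjusted p = 0.0619 and 0.132). The Kif11 call was also lost without NmU array 1 or 2, and the Kif22 call without PBS array 1 or 2 or NmU array 2 or 3. Kif20a, a kinesin of cytokinesis, came close without a call on both of its probe sets (-0.43, adjusted p = 0.0508, and -0.46, adjusted p = 0.0911). Kif23, the motor partner of Racgap1, had -0.34 (adjusted p = 0.277).

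Foxm1, the forkhead factor that helps to switch on many genes of this list, was itself called lower. It read 364.6, 290.1, 368.1 and 297 with PBS at 3 h and 192.5, 197.5 and 247.5 with NmU, with no overlap. It fell by 0.64 (SE 0.17, adjusted p = 0.0130), and by 1.30 on its dimmer probe set (adjusted p = 0.00997). The dimmer set overlapped between groups: it read 92.8, 70.3, 53.6 and 43.6 with PBS and 59, 21.7 and 12.8 with NmU. On the brighter probe set the adjusted p was 0.0741 without NmU array 1 and 0.0617 without NmU array 2.

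The spindle checkpoint and chromosome groups held no call at 3 h. Of the checkpoint genes, Bub1, Bub3, Mad2l1 and Cdc20 had log2 ratios of -0.33, -0.17, -0.20 and -0.13 (limma adjusted p from 0.244 to 0.702). Bub1 and Bub3 hold the checkpoint at the kinetochore, Mad2l1 is the inhibitor that they help to load, and Cdc20 is the activator of the anaphase-promoting complex that the inhibitor blocks. Of the chromosome proteins, Top2a, Smc2, Smc4 and Mki67 had -0.24, -0.08, -0.22 and -0.35, and the centromere histone Cenpa had -0.17. A second, dimmer probe set of Mki67 went the other way, with mean signals of 38.8 with PBS and 50.7 with NmU. On the brightest probe sets the NmU arrays of all 9 overlapped the PBS arrays. A dimmer probe set of Bub1 did not overlap: it read 35.6, 31, 24.7 and 19.2 with PBS and 13.2, 18.7 and 8.4 with NmU.

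**Figure D2:**
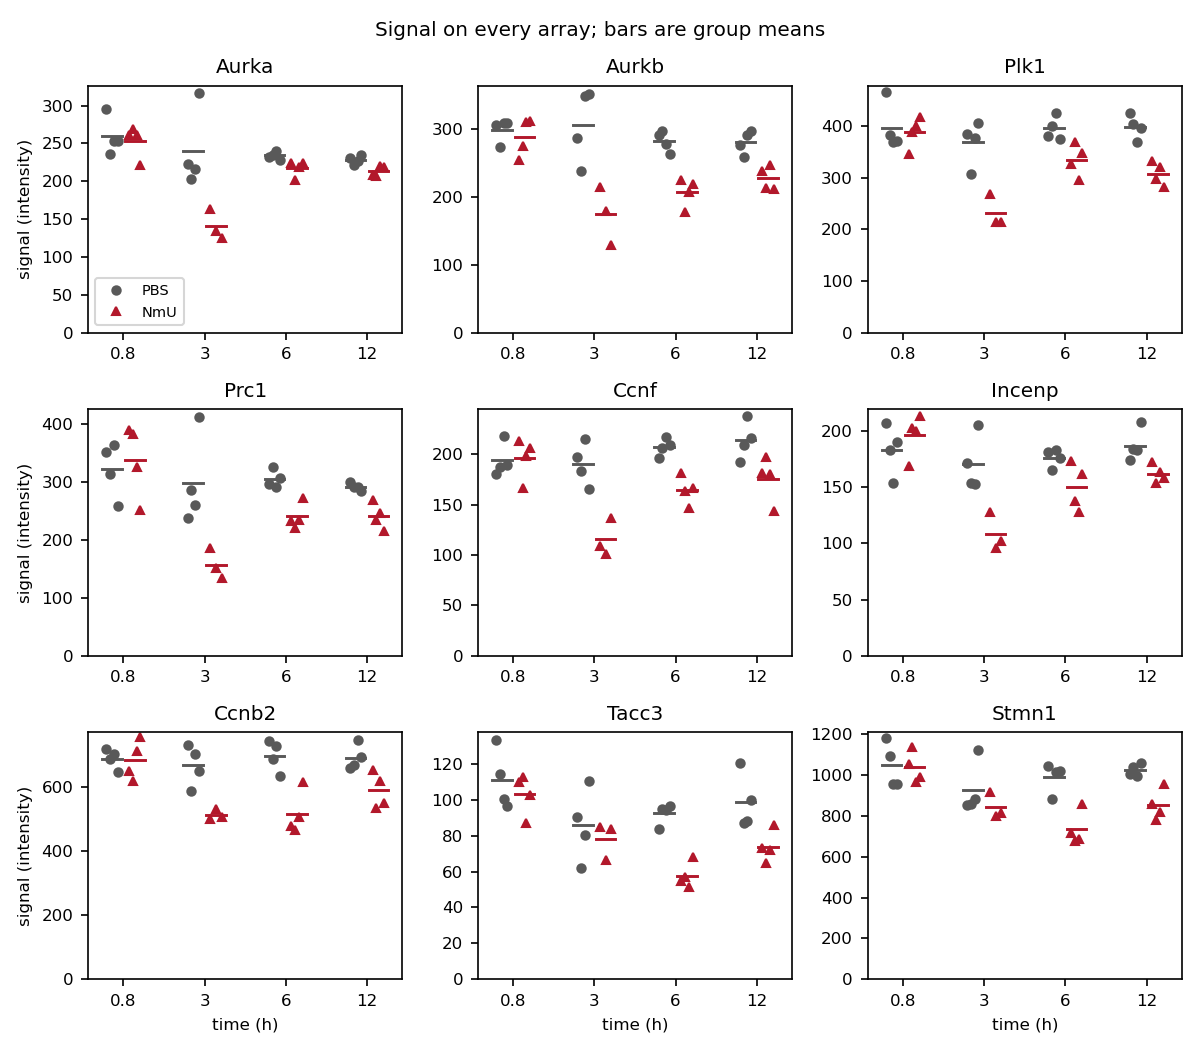
Signal (y axis, deposited intensity, from 0) on each array against time (x axis, h) for 9 genes, with PBS arrays as grey circles, NmU arrays as red triangles and group means as bars. For Aurka, Aurkb, Plk1, Prc1, Ccnf, Incenp and Ccnb2 the 3 NmU arrays at 3 h lie below all 4 PBS arrays, and Tacc3 and Stmn1 separate at 6 h instead.

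At 6 h the list of called genes differed from that at 3 h, although a direct test between these times, given below, did not show this gene by gene. Of the 8 that fell, Aurkb, Ccnb2 and Kif11 had also been called at 3 h, while Tacc3, Top2a, Stmn1, Mad2l1 and Cks2 had not. In all 8 the 4 NmU arrays were below the 4 PBS arrays, and this held for 14 of the 34 members, against 5.44% of all tested probe sets. The median log2 ratio of the 34 was -0.32, against 0.02 over all tested probe sets, and 32 of 34 were negative.

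Tacc3, which steadies the microtubules of the spindle, read 83.9, 94.8, 94.7 and 96.7 with PBS at 6 h and 54.6, 57.3, 51.4 and 68.1 with NmU. The groups were well apart. Tacc3 fell by 0.68 (SE 0.15, adjusted p = 0.00556), the largest fall of the 8 called genes. Stmn1, stathmin, which takes microtubules apart until mitotic kinases switch it off, read 1047.2, 882.9, 1016.8 and 1019.3 with PBS and 715.7, 679.5, 689.2 and 857.8 with NmU. The highest NmU array, number 4, lay just under the lowest PBS array, and Stmn1 fell by 0.43 (SE 0.10, adjusted p = 0.00918).

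Top2a, the topoisomerase that untangles sister chromatids, read 335.4, 328.5, 360.6 and 359.7 with PBS at 6 h and 246.1, 219.8, 244.1 and 303.9 with NmU. It fell by 0.46 (SE 0.12, adjusted p = 0.0200), with NmU array 4 again the highest of its group. Mad2l1, the checkpoint protein Mad2, read 715.5, 759.5, 862 and 844.1 with PBS and 538.1, 634.2, 637.4 and 591.1 with NmU, and fell by 0.41 (SE 0.10, adjusted p = 0.0192). Cks2 read 798.4, 780.4, 779.8 and 724.4 with PBS and 576.4, 614, 591 and 708 with NmU, and fell by 0.31 (SE 0.09, adjusted p = 0.0418). The 4 NmU arrays of each gene lay below all 4 PBS arrays.

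Of the genes called at both times, Ccnb2 read 742.5, 686.1, 727.6 and 632 with PBS at 6 h and 478.7, 465, 506.4 and 613.7 with NmU, and fell by 0.44 (SE 0.09, adjusted p = 0.00448). Aurkb read 291.9, 297.2, 278.1 and 262.8 with PBS and 224.5, 177.3, 207.5 and 218.6 with NmU, and fell by 0.45 (SE 0.13, adjusted p = 0.0355). Kif11 read 188.6, 183.5, 230 and 232.7 with PBS and 127.7, 173, 140.9 and 147.9 with NmU, and fell by 0.50 (SE 0.13, adjusted p = 0.0236). None of these overlapped between PBS and NmU. Ccnb2, Stmn1 and Tacc3 kept their calls without any 1 of the 31 arrays. The count of 8 became 3 without PBS array 3, 5 without PBS array 4, and 4 without NmU array 1 or NmU array 3 of the 6 h groups. Without NmU array 4 it became 11. The calls of the other 5 were lost, each without the arrays named: Aurkb (PBS 1, 2 or 3, NmU 2 or 3), Kif11 (PBS 3 or 4, NmU 1 or 3), Mad2l1 (PBS 3 or 4, NmU 1), Top2a (PBS 3 or 4, NmU 1, 2 or 3) and Cks2 (PBS 1, 2 or 3, NmU 1, 2 or 3, and 1 array each of PBS at 0.8 h and NmU at 12 h).

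Several genes with deep falls at 3 h were near their PBS level at 6 h. Aurka read 232.3, 235.3, 240.1 and 228.5 with PBS at 6 h and 223.7, 201.7, 219.3 and 223.9 with NmU, a log2 ratio of -0.11 (adjusted p = 0.660). The NmU arrays were still all below the PBS arrays, by little. Kif2c, Kif22 and Ttk had -0.11, -0.02 and -0.15 (adjusted p from 0.654 to 0.964). Plk1, Prc1 and Ccnf had -0.25, -0.35 and -0.33 without a call (adjusted p = 0.187, 0.204 and 0.0858), each with no overlap between groups.

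The change between 3 h and 6 h was tested directly in 2 ways. Within the NmU arrays alone, 6 members rose from 3 h to 6 h, against 2.61% of all tested probe sets: Aurka by 0.63 (SE 0.11, adjusted p = 0.00165), Prc1 by 0.62 (adjusted p = 0.0252), Kif2c by 0.62, Plk1 by 0.53 (adjusted p = 0.00546), Ccnf by 0.52 (adjusted p = 0.0129) and Incenp by 0.47 (adjusted p = 0.0297). The difference between the NmU effects at 6 h and 3 h, each against its own PBS group, was called by limma for 0 of 34 members, against 0.404% of all tested probe sets called higher and 0.316% lower. At an unadjusted p under 0.05, 7 members were higher in that difference and 2 were lower, against 6.97% and 3.77% of all tested probe sets. Aurka came nearest, with a difference of 0.64 (SE 0.16, adjusted p = 0.0504), and Tacc3 and Stmn1 were the 2 that went the other way (-0.57 and -0.30). The differences between the sets of genes called at 3 h and at 6 h were therefore not themselves shown by a test, gene by gene.

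**Figure D3:**
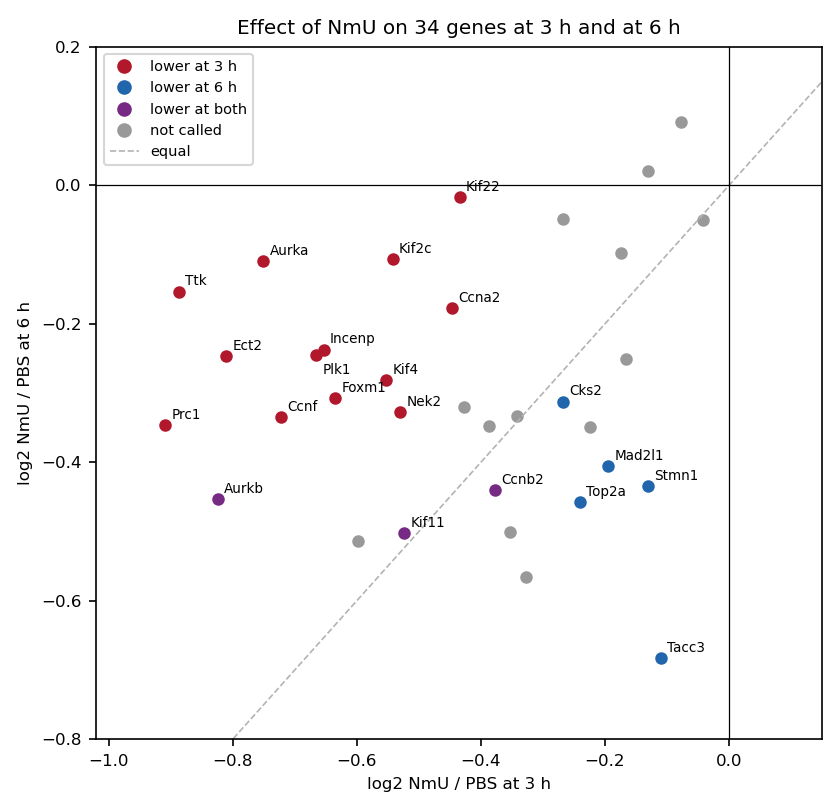
Log2 ratio of NmU over PBS at 6 h (y axis) against that at 3 h (x axis) for the 34 genes, coloured by the times at which a gene was called, with a dashed line of equal values. Prc1, Aurka and Plk1 lie above the line, with deeper falls at 3 h, and Tacc3, Stmn1, Top2a and Mad2l1 lie below it.

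At 0.8 h the members were near their PBS level on their brightest probe sets. On the dimmer probe set of Mki67 the NmU arrays (24.1 to 32.7) lay below the PBS arrays (33.8 to 47.3). The median log2 ratio was -0.04, the same as over all tested probe sets, and the values ran from -0.31 for Ttk to 0.30 for Foxm1. Limma called 0 members, against 0.0631% of probe sets lower and 0.783% higher, and 0 members reached an unadjusted p under 0.05. The NmU effect was deeper at 3 h than at 0.8 h in 7 members, against 1.79% of all tested probe sets: Prc1 (-0.97), Foxm1 (-0.93), Aurkb (-0.77), Incenp (-0.75), Ccnf (-0.74), Aurka (-0.72) and Plk1 (-0.64), with adjusted p from 0.00854 for Aurka to 0.0200 for Aurkb.

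At 12 h no member was called by limma in the fit to all arrays, against 0.404% of probe sets lower and 0.858% higher, while 30 of 34 were negative with a median of -0.21, against -0.02 over all tested probe sets. An unadjusted p under 0.05 was reached by 12 of the 34, all lower, against 5.79% of all tested probe sets. In 14 of 34 the NmU arrays lay below all PBS arrays, against 3.82%. Plk1 was the nearest to a call: it read 425.1, 404.7, 369.3 and 396.5 with PBS and 332.8, 297.3, 320.2 and 282.2 with NmU, a log2 ratio of -0.37 (SE 0.10, adjusted p = 0.0722). Cks2 read 892, 861.2, 735.8 and 793.1 with PBS and 645.2, 656.7, 720.3 and 612.3 with NmU, a log2 ratio of -0.32 (SE 0.09, adjusted p = 0.0917). Neither overlapped. Plk1 passed without PBS array 2 of 3 h, and Cks2 without PBS array 4 of 3 h, which change only the shared spread here. Aurka had -0.10 at 12 h, and its effect there was above that at 3 h by 0.65 (SE 0.16, adjusted p = 0.0175), the 1 member called in that difference, against 1.35% of probe sets.

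Over all 4 times, the limma F test called 19 of 34 members, against 11.6% of all tested probe sets. The F test for a difference of the NmU effect between times called 5, against 4.04%: Aurka (adjusted p = 0.0158), Ccnf (0.0442), Prc1 (0.0442), Incenp (0.0467) and Foxm1 (0.0488). This count ranged from 0, without NmU array 2 of 3 h, to 5 as single arrays were left out. In PBS alone the F test over time called 0 of the 34, against 0.0126% of all tested probe sets. At an unadjusted p under 0.05 it marked 3 members. The share of all tested probe sets at that threshold was not taken, so these 3 are not read as a change.

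PBS array 4 at 3 h was the highest of its group in these genes, although the check of highest and lowest arrays given below did not mark this array. Its median over the 34 members was 0.30 above the mean of its group, with 5 of 34 genes below that mean, while the other 3 PBS arrays at 3 h lay at -0.09, -0.17 and -0.04. The 3 NmU arrays at 3 h lay at -0.32, -0.52 and -0.44 on the same scale, with 30, 34 and 33 of 34 genes below the PBS mean. Without that PBS array, 12 members were called lower at 3 h in place of 16, the calls of Ect2, Kif11, Kif22 and Ttk being lost, and the median of the 34 was -0.29. Over all 7922 tested probe sets the calls went the other way, from 454 to 523 lower and from 352 to 395 higher. At 6 h NmU array 4 was the nearest to PBS, at -0.17 against -0.37, -0.32 and -0.35 for the others. At 12 h the 4 NmU arrays lay between -0.22 and -0.15 and the 4 PBS arrays between -0.04 and 0.04, so the array medians did not overlap, although no single gene was called.

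**Figure D4:**
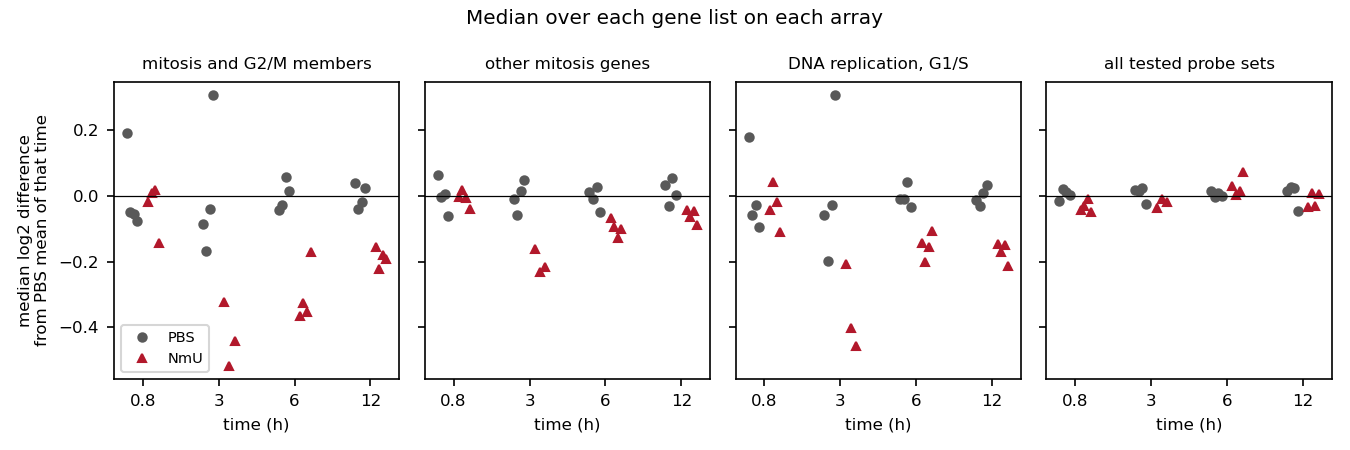
Median over each gene list of the log2 difference from the PBS mean of the same time (y axis), for every array (points), against time (x axis, h), with PBS in grey and NmU in red. In the panel of members, the NmU arrays at 3 h lie between -0.52 and -0.32 and PBS array 4 lies at 0.30.

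When the spread was taken only from the 7 arrays of 3 h, limma called 0 of the 34, with the same log2 ratios and adjusted p from 0.0631 (Ccnf) to 0.299 (Kif22) for the 16 genes. Calls also dropped over all 7922 tested probe sets, from 454 to 61 lower and from 352 to 110 higher. In the same kind of fit at 6 h Tacc3 alone of the members kept its call (adjusted p = 0.0240), and over all tested probe sets the calls went from 161 to 53 lower and from 226 to 111 higher. The calls at 3 h and 6 h therefore use the spread of all 8 groups.

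Other genes of the cycle were described from lists that are not members. Over all tested probe sets, 5.73% were called lower and 4.44% higher at 3 h, and 2.03% and 2.85% at 6 h. Of 52 further mitosis genes tested, out of 85 listed, 8 were lower and 2 higher at 3 h with a median of -0.18, and 4 were lower and 0 higher at 6 h with a median of -0.11. The lowest p at 3 h belonged to Nusap1, a spindle-binding protein (-1.38, adjusted p = 3.77e-05), Numa1, which gathers the spindle poles (-0.68, adjusted p = 1.31e-04), and Ncaph, a condensin subunit (-0.92, adjusted p = 2.33e-04). Of 41 tested genes of DNA replication and the G1/S step, 15 were lower and 0 higher at 3 h with a median of -0.37, and 3 were lower at 6 h with a median of -0.13. Slbp, which binds histone mRNA, fell by 0.60 at 3 h (adjusted p = 1.11e-05), and Tk1, thymidine kinase, by 0.55 (adjusted p = 0.00127). PBS array 4 of 3 h was also 0.30 above its group in the replication list.

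Of the 20 tested regulators of this set of genes, 5 were lower and 2 higher at 3 h, and 2 were lower and 1 higher at 6 h. The shares over all tested probe sets were 5.73% lower and 4.44% higher at 3 h, and 2.03% and 2.85% at 6 h. Myb, the c-Myb factor of dividing blood cells, fell by 1.76 at 3 h (SE 0.13, adjusted p = 1.08e-09) and by 0.76 at 6 h (adjusted p = 2.74e-04). Rbl1, the pocket protein p107 of the DREAM complex, fell by 1.10 at 3 h (SE 0.09, adjusted p = 1.69e-09) and by 0.32 at 6 h (adjusted p = 0.0142). Cdkn2c, the Cdk inhibitor p18, fell by 0.94 at 3 h (SE 0.12, adjusted p = 6.42e-06). The falls of Myb and Rbl1 at 3 h were larger than that of any of the 34 members on its brightest probe set. The dimmer probe set of Foxm1, whose groups overlapped, fell by more than Rbl1.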

How the data were processed

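RNA from 31 samples was measured on one-colour oligonucleotide arrays. The values are probe set intensity as deposited by the authors in 1 table of 12488 rows, and how the scanner output was summarised is not given in the sources used here. The arrays were already on one scale (trimmed means 148 to 149, median signals 34.4 to 43.3), so the intensity was used as the authors deposited it. Probe sets were named from the platform annotation: 10833 of 12422 that are not controls carry 1 symbol, 396 several and 1193 none, and only single symbols were named.

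Values under 5.8, the 20th percentile of all, were raised to it, and log2 was taken. A probe set was kept where a group's mean log2 value was above that of 20.3, the 40th percentile, which left 7922 probe sets of 5900 named genes. One limma fit (limma 3.58.1, R 4.3.3) with 8 group means (23 residual degrees of freedom) gave two-sided tests with Benjamini-Hochberg adjustment over all 7922. The number of arrays limits the precision. The fit was tested on simulated data.

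Within groups no 2 arrays were identical, and their correlations across probe sets were 0.951 to 0.982. Replicate numbers were checked for pairing: same-numbered PBS and NmU arrays had deviations correlated at -0.222 to 0.206 over probe sets. At 0.8 h each PBS array correlated best with the NmU array of its own number (0.0575 to 0.206). At 3 h and 6 h some did, and at 12 h none did. The numbers were not used as pairs in the main fit. The genes, their roles and the other lists were chosen with earlier results of these data known. The text names any of the 40 members, values on every array of a time are given for members called at that time, and other lists are given by counts with up to 3 examples of lowest p. Alternatives covered the floor, scaling, array weights, the shared spread, probe set choice and each array left out.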

Additional observations from a re-analysis of the deposited data

Results flagged for a closer look

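In 39 checks the highest and lowest array of a group of 4 were set against the rest of that group. Each check took 1 called gene, or the median of the members, in 1 group. An array stood apart in 2 checks, while chance alone marks about 1 in 20. The checks use the same arrays many times and are not independent. Tacc3 on the first PBS array at 6 h was the lowest of its group at 83.9, with the other 3 at 94.7 to 96.7, which is above all 4 NmU arrays of that time. The median of the 34 members on the first PBS array at 0.8 h was 0.188 above the mean of its group, with the others at -0.0782 to -0.051.

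The effect of NmU differed between times by the limma F test in 5 members: Aurka (adjusted p = 0.0158), Ccnf (0.0442), Prc1 (0.0442), Incenp (0.0467) and Foxm1 (0.0488). In each the fall at 3 h was deeper than the values at 0.8, 6 and 12 h.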

How the results depend on the processing

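No member that was called changed direction under any alternative tried. Of the 24 calls of single members at 3 h and 6 h, 12 held without any 1 of the 31 arrays, and 1, Tacc3 at 6 h, also held under every other alternative. With only the 2 groups compared in the fit, the count of members lower at 3 h was 0 and that at 6 h was 1. As single arrays were left out, the counts lower ranged from 11 to 17 at 3 h, from 3 to 11 at 6 h and from 0 to 1 at 12 h, and the F test for a difference between times gave 0 to 5. That last F count was 1 with arrays scaled to a common median, 1 with quantile normalization, 1 with the replicate block and 10 with array weights. With PBS array 4 of 3 h and NmU array 4 of 6 h both left out, 13 members were lower at 3 h, 11 at 6 h and 1 (Cks2) at 12 h. With a replicate block inside each time, which leaves PBS array 4 of 3 h without a partner, 12 members were lower at 3 h and 6 at 6 h. Scaling to a common median gave 11 at 3 h and 7 at 6 h, moved the median of the members at 0.8 h to 0.04 and that at 12 h to -0.15, and turned the split over all probe sets at 3 h from 454 lower and 352 higher to 266 and 322, and at 6 h from 161 and 226 to 176 and 115; the cause was not tested.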
